A study of Mus musculus with 42 samples.

Results

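Brown adipocytes are fat cells that burn fuel to make heat. Uncoupling protein 1, encoded by Ucp1, lets protons leak back across the inner mitochondrial membrane, so that respiration releases heat. The sympathetic nervous system, acting through cAMP, and thyroid hormone activate this program, and the cells burn fatty acids released from many small lipid droplets. Beige adipocytes in white fat depots can switch on the same genes, and hepatocytes express little of them apart from Elovl3. The genes examined were Ucp1, Cidea, Elovl3, Dio2, Cox7a1, Cox8b and Prdm16, taken by name from the read count table. They are 7 of the 54532 genes listed, and all 7 passed the minimum mean count of 25 over the libraries.

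The libraries came from tissue labelled liver of female C57BL/6 mice (C57BL/6NHsd in the study's methods), weaned at 3 weeks of age. They then received AIN93G, the standard diet, or a high-fat version of it (HFD) for 3 weeks. Soybean oil gave 16% of the energy in AIN93G and 45% in the HFD. Tissue was collected every 4 h from ZT 0 to ZT 24 (zeitgeber time), which gave 7 time points. There were 3 libraries for each diet and time point, 42 in all. The labels also give a phase, which differed within ZT 12. There it was light for replicate 2 of AIN93G and replicate 3 of the HFD, and dark for the others. All libraries of ZT 24 were labelled dark. Each time point was treated as 1 group per diet. No genotype, transgene or other agent is given in the labels, and the labels do not say whether animals were pooled.

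The library totals ran from 14592481 to 21368409 counts. In 32 libraries the level of Alb, the serum albumin gene of hepatocytes, was 66430 CPM (a gene's counts relative to the library total) or more, and in 10 it was between 18.69 and 81 CPM. These 10 libraries are called adipocyte-rich below and the other 32 liver. The adipocyte-rich libraries were all 3 of AIN93G at ZT 16, all 3 of AIN93G at ZT 20, replicates 1 and 2 of AIN93G at ZT 24, and replicates 1 and 2 of HFD at ZT 24. The summed level of 14 adipocyte markers was 15350 to 30660 CPM in them and 874.3 to 2909 CPM in liver. The summed level of the 11 hepatocyte markers other than Alb, which made the split, was 405.8 to 920.5 CPM in them and 46910 to 74460 CPM in liver, so the tissue label was not borne out by its defining markers in these 10 libraries. Below, CPM values are scaled by the TMM method (trimmed mean of M values), apart from the Alb levels just given.

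The promoters of Ucp1 and Dio2 are shown because these genes moved together across the adipocyte-rich libraries, and that of Cox8b because its relation with Ucp1 was weaker over the same libraries. Each is the 250 bases before the RefSeq transcription start (build GRCm38.p6), read 5′ to 3′ on the strand of the gene. RefSeq promoters matched 5 of the 7 members, the others being Cidea and Elovl3. Capitals mark AGGTCA (part of a nuclear receptor binding site), TGACG (part of the cAMP response element) and CAGCTG (an E-box), each searched on both strands.
Ucp1 (chr8:83290098-83290347, + strand): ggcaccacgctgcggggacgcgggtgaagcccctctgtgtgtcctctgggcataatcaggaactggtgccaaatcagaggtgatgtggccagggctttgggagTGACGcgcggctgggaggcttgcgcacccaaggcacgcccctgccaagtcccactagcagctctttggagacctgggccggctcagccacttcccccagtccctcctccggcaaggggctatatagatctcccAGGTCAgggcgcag
Dio2 (chr12:90739039-90739288, - strand): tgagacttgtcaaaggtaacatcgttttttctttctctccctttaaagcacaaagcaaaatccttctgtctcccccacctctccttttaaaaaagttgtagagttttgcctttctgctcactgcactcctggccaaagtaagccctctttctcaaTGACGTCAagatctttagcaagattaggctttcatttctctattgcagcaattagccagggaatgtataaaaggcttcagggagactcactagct
Cox8b (chr7:140900447-140900696, - strand): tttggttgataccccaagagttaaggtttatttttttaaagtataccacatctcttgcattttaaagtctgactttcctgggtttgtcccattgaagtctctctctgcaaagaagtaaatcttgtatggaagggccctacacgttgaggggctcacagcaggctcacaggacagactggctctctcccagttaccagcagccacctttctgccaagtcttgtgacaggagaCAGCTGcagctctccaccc
The Ucp1 window held 1 AGGTCA and 1 TGACG. The Dio2 window held 2 TGACG matches, on opposite strands and overlapping, and the Cox8b window held 1 CAGCTG. The windows of Cox7a1 and Prdm16 held none of the motifs. Of 32851 promoter windows of the same length, 14% held AGGTCA, 17.8% TGACG and 13% CAGCTG, so a match is common and is only a description. The Dio2 window ends 600 bases before the gene start used in the count table.

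Ucp1 (ENSMUSG00000031710, chr8:83290352-83298452, mm10) varied more between adipocyte-rich libraries than most genes did. At ZT 16 on AIN93G its level was 139, 5.02 and 196 CPM in replicates 1, 2 and 3. At ZT 20 it was 18.4, 166 and 325 CPM. At ZT 24 it was 498 and 31.4 CPM on AIN93G and 562 and 412 CPM on the HFD. Replicate 2 at ZT 16, replicate 1 at ZT 20 and replicate 2 at ZT 24 of the AIN93G groups were thus low, and the other 7 libraries lay at 139 CPM or above. The highest level was 112 times the lowest, although the summed adipocyte markers in the same libraries differed far less. Per 100 Adipoq counts (the adiponectin gene, made by all mature adipocytes) the Ucp1 count ran from 0.253 to 43.8. In bulk tissue, fewer cells of a type and less RNA per cell cannot be told apart.

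Within the AIN93G groups of ZT 16 and ZT 20, the SD of Ucp1 between replicates was 2.56 on the log2 CPM scale (6 libraries, 4 degrees of freedom). The median over 14016 genes was 0.289, and 99.2% of genes had a smaller SD than Ucp1. The SD was 2.52 for Elovl3, 1.49 for Cidea, 0.931 for Dio2, 0.907 for Cox7a1 and 0.876 for Cox8b. Prdm16, which encodes a transcriptional regulator of brown fat identity, had an SD of 0.318, with 55.2% of genes below it. The members therefore ran from among the most variable genes to an ordinary level of variation.

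Cidea encodes a protein of the lipid droplet surface that shapes droplets in brown fat (ENSMUSG00000024526, chromosome 18). Its level on AIN93G was 147, 21 and 206 CPM at ZT 16, 62.7, 111 and 298 CPM at ZT 20, and 277 and 51.7 CPM at ZT 24. On the HFD at ZT 24 it was 214 and 188 CPM. The same 3 libraries were lowest in Ucp1 and in Cidea. Cidea counts per Ucp1 count ran from 0.381 to 4.19, with the highest ratio in the library with the least Ucp1.

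Elovl3 encodes an enzyme that lengthens saturated and monounsaturated fatty acids and is induced by cold in brown fat (ENSMUSG00000038754, chr19:46131897-46135307). It reached 13.6, 0.245 and 15 CPM at ZT 16 on AIN93G, 1.64, 4.83 and 21.4 CPM at ZT 20, and 17 and 3.11 CPM at ZT 24. The HFD libraries of ZT 24 had 25.8 and 29.1 CPM, above all 8 AIN93G adipocyte-rich libraries. Dio2 encodes the deiodinase that makes active thyroid hormone within the cell (ENSMUSG00000007682, chr12:90724552-90738438). It was at 6.24, 2.69 and 8.24 CPM at ZT 16, 3.35, 8.93 and 13.9 CPM at ZT 20, and 24.8 and 1.69 CPM at ZT 24 on AIN93G. The HFD libraries of ZT 24 had 30.9 and 26.6 CPM of Dio2, again above the AIN93G libraries, but this difference among the adipocyte-rich libraries alone was not tested.

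Cox7a1 and Cox8b encode isoforms of cytochrome c oxidase subunits found in brown fat, heart and skeletal muscle. Cox7a1 (ENSMUSG00000074218, chr7:30184144-30186078) was at 41.2, 13.4 and 60.3 CPM at ZT 16, 17, 17.3 and 36.4 CPM at ZT 20, and 26.7 and 35.3 CPM at ZT 24 on AIN93G, and at 29 and 87.8 CPM on the HFD. Cox8b (ENSMUSG00000025488, chr7:140898945-140900446) was at 112, 39.5 and 180 CPM, 55.2, 95.9 and 112 CPM, and 78.7 and 78.8 CPM on AIN93G, and at 104 and 242 CPM on the HFD. In the 3 libraries with the least Ucp1, Cox7a1 lay between 13.4 and 35.3 CPM and Cox8b between 39.5 and 78.8 CPM. In the other 7 libraries Cox8b lay between 78.7 and 242 CPM. Of these 3 libraries, 2 were also rich in muscle markers. Prdm16 (ENSMUSG00000039410, chr4:154316125-154636873) was at 9.31, 6.86 and 8.09 CPM at ZT 16, 10, 16.9 and 11.2 CPM at ZT 20, 20.4 and 8.13 CPM at ZT 24 on AIN93G, and 8.51 and 10.1 CPM on the HFD.

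Per kilobase of gene length, the median level over the 10 libraries was 277 CPM per kb for Cox8b, 144 for Cidea, 111 for Ucp1, 60.1 for Cox7a1, 9.55 for Elovl3, 1.48 for Dio2 and 1.04 for Prdm16. The ranges of neighbours in this order overlapped, except those of Cox7a1 (25.1 to 164 CPM per kb) and Elovl3 (0.164 to 19.5 CPM per kb). Genes on the opposite strand overlap 3 of the members, and the counting is not stated to use strand, so their reads cannot be told apart. B430212C06Rik overlaps Cidea, Gm26512 overlaps Dio2 and 3 genes overlap Prdm16, with at most 180, 26 and 9 counts in any library.

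**Figure D1:**
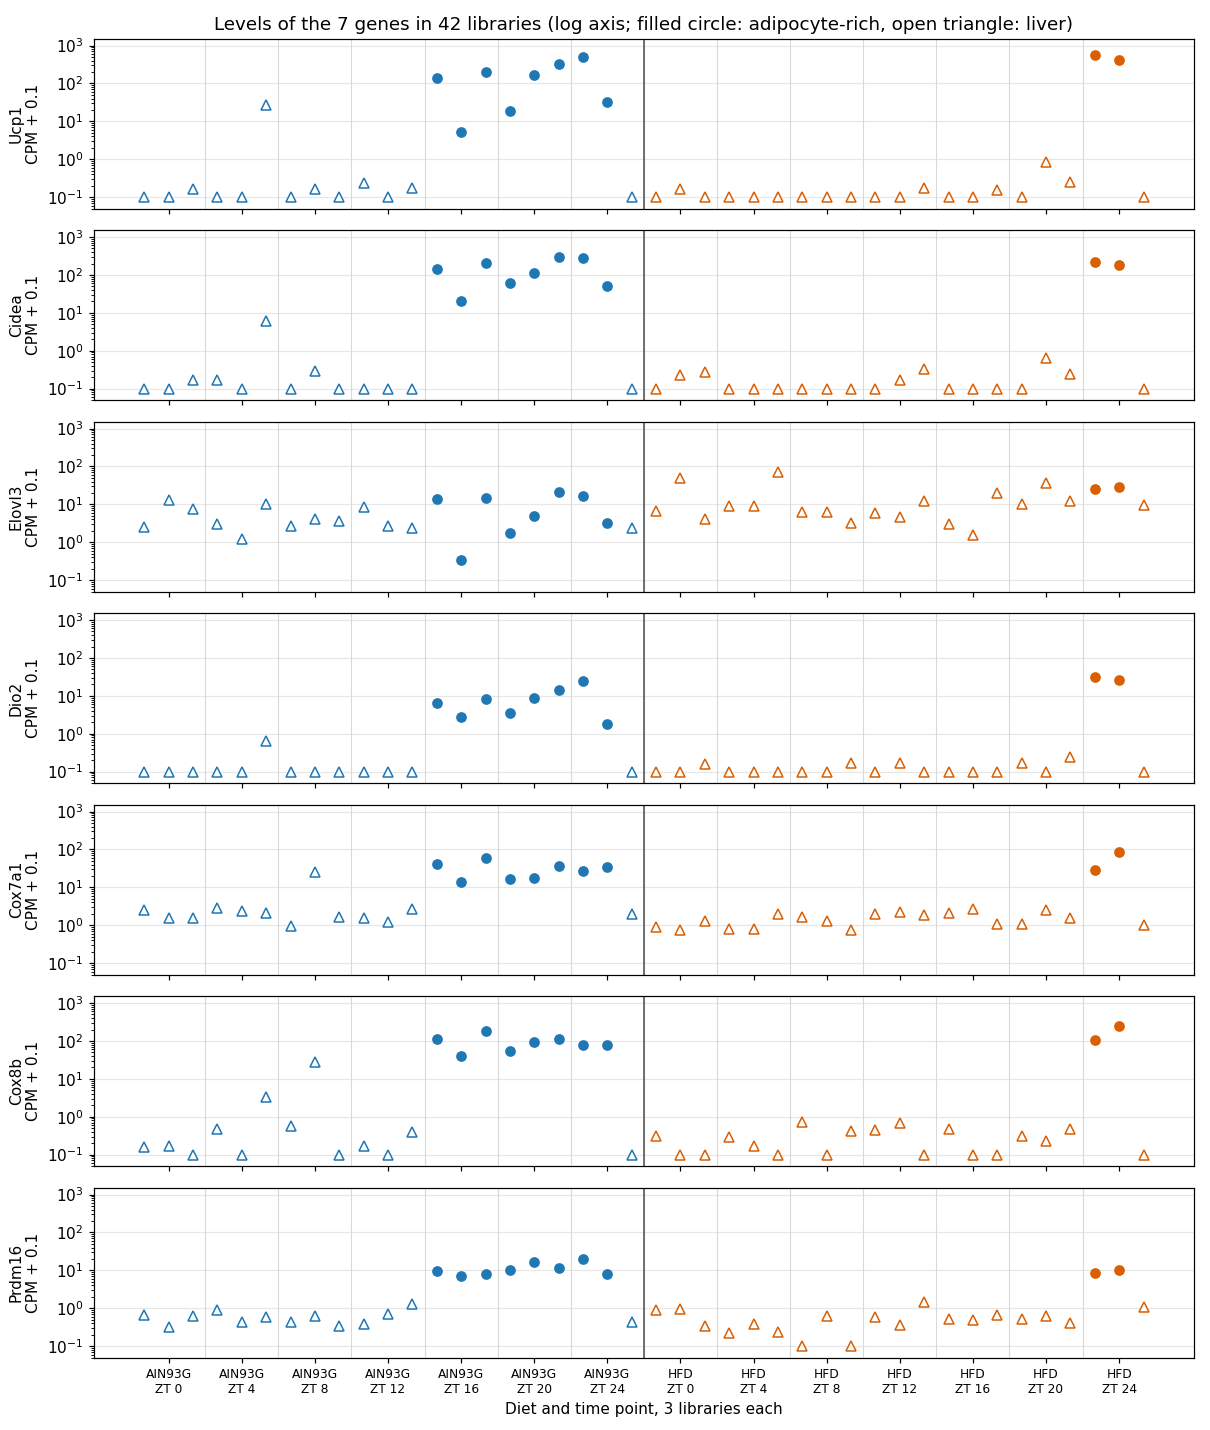
Level of each gene (CPM plus 0.1, log axis) in every library, by diet and time point, with 3 libraries a group; filled circles are adipocyte-rich libraries and open triangles liver. Ucp1 spans 5.02 to 562 CPM among the circles, while Elovl3 is the member whose circles and triangles overlap throughout.

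Across the 10 adipocyte-rich libraries, Cidea, Elovl3 and Dio2 followed Ucp1, and Cox7a1 and Prdm16 did so less closely. On the log2 CPM scale Pearson's r with Ucp1 was 0.964 for Elovl3 (Spearman's rho 0.927, adjusted permutation p = 0.00018 for r and 9e-04 for rho). It was 0.958 for Cidea (rho 0.867, adjusted permutation p = 0.00057 and 0.00432) and 0.893 for Dio2 (rho 0.939, adjusted permutation p = 6e-04 and 9e-04). The p-values are two-sided, from 100000 permutations, and adjusted by Benjamini and Hochberg over the 6 pairs. Without the 2 libraries farthest from the median of Ucp1, replicate 2 at ZT 16 and replicate 1 at ZT 20, r was 0.87, 0.901 and 0.988 for Elovl3, Cidea and Dio2. Within the 6 AIN93G libraries of ZT 16 and ZT 20, r was 0.963, 0.966 and 0.956, with exact permutation p = 0.00556, 0.00278 and 0.00278.

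Cox8b had r = 0.745 with Ucp1 (rho 0.539, adjusted permutation p = 0.0196 for r and 0.172 for rho). Over the 10 libraries the relation rested on the 2 farthest, since r was 0.308 without them. It was 0.498 (adjusted permutation p = 0.377) without the 3 libraries rich in muscle markers described below. Within the 6 AIN93G libraries of ZT 16 and ZT 20, which hold the 2 farthest, r was 0.914 (rho 0.886, exact permutation p = 0.0125 for r and 0.0333 for rho). Cox7a1 had r = 0.587 (rho 0.442, adjusted permutation p = 0.0901 and 0.204) and Prdm16 had r = 0.497 (rho 0.467, adjusted permutation p = 0.129 and 0.204). These did not pass. Relative to the summed adipocyte markers, r was 0.706 for Cox7a1 and 0.718 for Prdm16 and both passed (adjusted permutation p = 0.0226). There both genes of a pair were divided by the same sum, which can raise r by itself. The permutation does not allow for this, so these passes do not show that Cox7a1 and Prdm16 followed Ucp1.

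**Figure D2:**
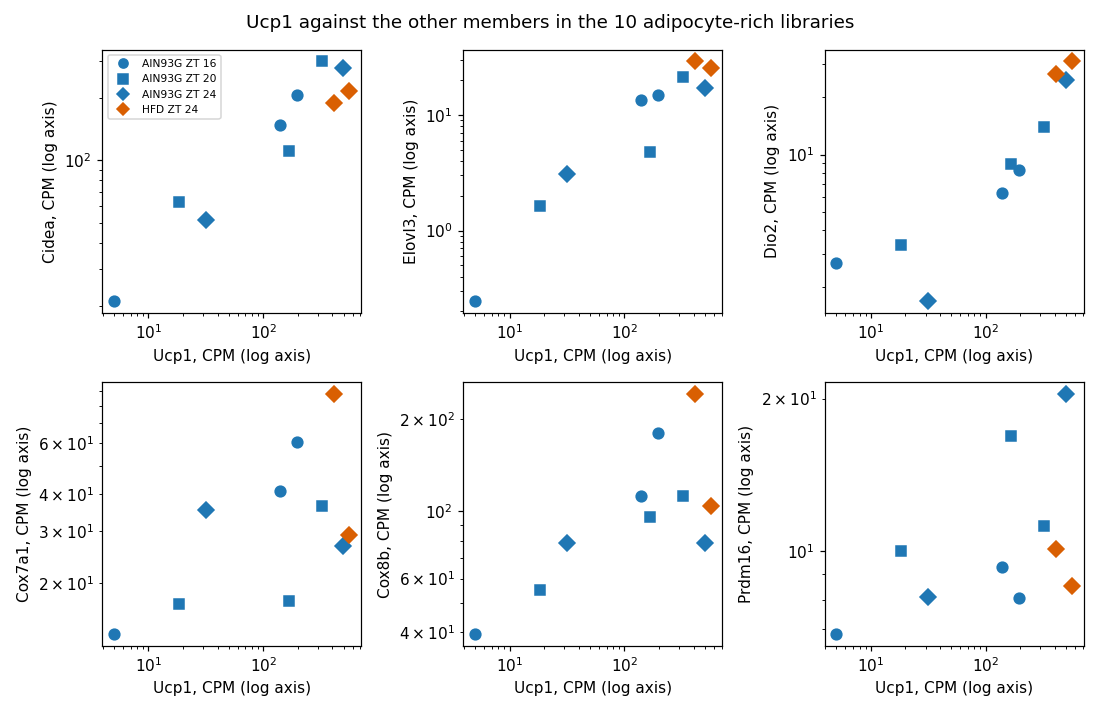
Level of each other member against Ucp1 in the 10 adipocyte-rich libraries (CPM, both axes log); color gives the diet and marker shape the time point. Cidea, Elovl3 and Dio2 rise with Ucp1 (r = 0.958, 0.964 and 0.893), while the points of Prdm16 are scattered (r = 0.497).

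Of 14070 other genes averaging 25 or more counts in these libraries, 62 (0.441%) had r above 0.8 with Ucp1, and the median r was -0.086. The 10 most alike were Elovl3 (0.964), Bri3bp (0.962), Cidea (0.958), Dennd1b (0.937), Pank1 (0.933), Tbx1 (0.922), Acaa2 (0.918), Cpn2 (0.916), Trmt2b (0.905) and Acss1 (0.904). Pank1 makes coenzyme A from pantothenate, Acaa2 carries out the last step of mitochondrial fatty acid oxidation, and Tbx1 is a transcription factor used as a marker of beige fat. These likenesses are over 10 libraries of 4 labelled groups and are given with no test.

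Many genes that supply fuel to brown fat followed Ucp1. Of 14 measured, 8 had r above 0.8, with a median of 0.809. They included Pank1, Plin5 (r = 0.903), a droplet coat protein of oxidative tissues, Letmd1 (0.902), a mitochondrial protein of brown fat, Acadvl (0.89), an acyl-CoA dehydrogenase, and Cpt1b (0.819), which admits fatty acids to mitochondria. Slc27a1, Acsl1 and Lpl had r of 0.166, 0.234 and 0.019. Of 8 brown and beige surface or secreted markers, Tbx1 and Otop1 (0.887), a proton channel, had r above 0.8.

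The transcriptional regulators of brown fat had none of 14 above 0.8 and a median of 0.437. The highest were Esrrg (0.668) and Ppargc1b (0.667), an estrogen-related receptor and a coactivator of mitochondrial genes. Lhx8, a homeobox gene used as a marker of brown fat, had r = -0.768, and Ebf2, an early regulator of brown fat, -0.235. Of 12 genes of adrenergic and thyroid input none passed 0.8, with Adcy3, an adenylyl cyclase, at 0.796 and Adrb3, the main adrenergic receptor of mouse adipocytes, at -0.534. The 14 adipocyte markers had a median of -0.5. The 10 ubiquitous cytochrome c oxidase subunits had a median of -0.096, and the relatives Ucp2 and Ucp3 had 0.161 and 0.18. Cidec, the member of the Cidea family typical of white fat, had r = -0.516.

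**Figure D3:**
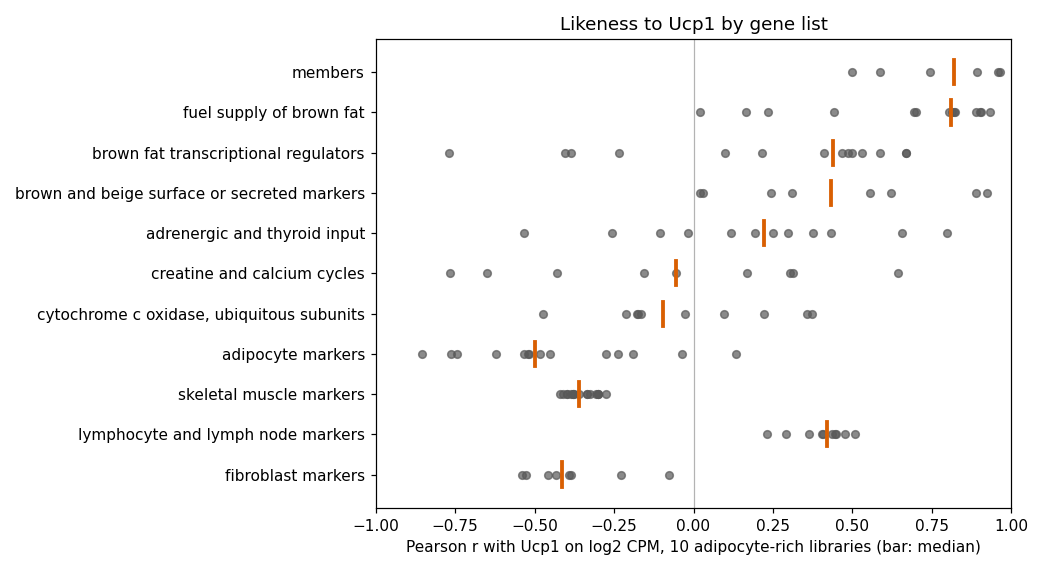
Pearson's r with Ucp1 on log2 CPM over the 10 adipocyte-rich libraries, for the genes of 11 lists; each point is a gene and each bar the median of its list. The fuel supply genes have a median of 0.809, the ubiquitous cytochrome c oxidase subunits -0.096 and the adipocyte markers -0.5.

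Other genes of brown fat identity were present at levels that differed from gene to gene. Ebf2 lay between 13.2 and 35.8 CPM and Slc36a2, a surface transporter of brown fat, between 110 and 334 CPM. Zic1, a marker of the classical interscapular depot, had no count in 8 of the 10 libraries and at most 0.449 CPM. Lhx8 lay between 1.46 and 12.1 CPM in the same libraries and had no count in any of the 32 liver libraries, which allows up to 0.241 CPM in the shallowest (3 counts).

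Skeletal muscle markers differed widely between the adipocyte-rich libraries and touch the reading of Cox7a1 and Cox8b. The summed level of 19 muscle markers was 5060 CPM in replicate 2 of AIN93G at ZT 16, 14730 CPM in replicate 2 of AIN93G at ZT 24 and 16110 CPM in replicate 2 of HFD at ZT 24. In the other 7 libraries it was between 41.79 and 383.7 CPM. The 3 muscle-rich libraries held the lowest Cox7a1 and Cox8b level and also the highest. Cox8b per 1000 CPM of muscle markers was 7.81, 5.35 and 15 in them and at least 468 in the other 7. In those 7, Cox8b was thus present with little muscle marker RNA. The part of muscle in the Cox7a1 and Cox8b levels of the 3 libraries was not tested. Lymph node markers summed to 236.1 to 903.3 CPM in 4 libraries and to at most 9.664 CPM in the other 6.

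The isoforms shared by brown fat and muscle were compared with their ubiquitous counterparts. Per kilobase, Cox7a1 was 22.1% to 55.3% of Cox7a1 plus Cox7a2, the ubiquitous isoform, in the adipocyte-rich libraries (median 42.6%). In liver the median was 2.34% and the highest share, in the muscle-rich library of ZT 8 described below, 27.2%. Cox8b was 24.3% to 60.5% of Cox8b plus Cox8a (median 46.6%), against a liver median of 0.0748% and 20% in that same liver library. The highest shares, 55.3% and 60.5%, were in a muscle-rich library, replicate 2 of HFD at ZT 24. The 7 libraries with few muscle markers had 22.1% to 46.6% of Cox7a1 and 25% to 57.5% of Cox8b.

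The labels set HFD against AIN93G at each time point. At ZT 16 and ZT 20 this comparison set liver libraries on the HFD against adipocyte-rich libraries on AIN93G, so diet and library content cannot be told apart. At ZT 16, 55.7% of the 13394 genes tested passed an adjusted p of 0.05 in edgeR's quasi-likelihood test, 28% lower on the HFD and 27.7% higher. Of the 7 members, 6 were lower and none higher, with a median log2 difference of -9.72 against -0.007 over all genes (-6.48 with the 2 members that had no count on the HFD set at their bound of 3 counts). At ZT 20, 58.6% of genes passed, 30.2% lower and 28.4% higher, and again 6 members were lower, with a median of -6.85 against -0.036. Ucp1, Cidea, Dio2, Cox8b and Prdm16 met the minimum count only through the adipocyte-rich libraries, so that their direction was fixed here and the counts and medians of the members are a description. Cox7a1 averaged 25 counts in liver only through replicate 2 of AIN93G at ZT 8 (389 counts). The 14 adipocyte markers were all lower at both times and the 12 hepatocyte markers, Alb included, all higher. Of the adipocyte markers, Adipoq, Lep, Plin1 and Cfd had liver medians of at most 3 counts. They met the minimum count only through the adipocyte-rich libraries, so their direction was fixed as well. Markers of other cell types also moved. All 8 fibroblast markers and 8 of 10 mammary epithelium markers were lower at both times (1 mammary marker was higher at ZT 16). Of 10 lymph node markers, 10 were lower at ZT 16 and 1 at ZT 20, and of 18 muscle markers tested, 11 and 4. Fibroblast markers summed to 3087 to 7634 CPM in the adipocyte-rich libraries and 207.9 to 354 CPM in liver, and mammary epithelium markers to 62.83 to 734.1 CPM and 226.5 to 406.3 CPM. The part of these cell types in the members' differences was not tested.

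For Ucp1 the mean was 113 ± 97.9 CPM on AIN93G and 0.0193 ± 0.0335 CPM on the HFD at ZT 16 (SD, n = 3). The HFD group held 1 count in all, and the ratio of summed counts was 5380 (95% exact binomial interval 966 to 213000). At ZT 20 the means were 170 ± 153 and 0.297 ± 0.393 CPM, and the ratio was 529 (309 to 994). The groups did not overlap at either time. These intervals cover counting error only.

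Cidea and Dio2 had no count on the HFD at ZT 16 and were at least 1970-fold and 89.5-fold higher on AIN93G, taking 3 counts over the HFD group as the floor. Cox8b was higher on AIN93G by a ratio of 865 (397 to 2360) at ZT 16 and 370 (201 to 771) at ZT 20. Cox7a1 and Prdm16 had counts in liver. The log2 difference of Cox7a1 in edgeR was -4.42 (SE 0.661, adjusted p = 0.00112) at ZT 16 and -3.86 (SE 0.444, adjusted p = 0.00011) at ZT 20. That of Prdm16 was -4.11 at ZT 16 and -4.92 at ZT 20. Prdm16 met the minimum count only through the adipocyte-rich libraries, so its direction was fixed and its differences are a description.

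Elovl3 alone did not pass at these times, and its groups overlapped. At ZT 16 its mean was 9.59 ± 8.12 CPM in the adipocyte-rich AIN93G libraries and 8.21 ± 10.4 CPM in the HFD liver libraries, a log2 difference of -0.28 (SE 1.32, adjusted p = 0.87). At ZT 20 the means were 9.28 ± 10.6 and 19.4 ± 14.8 CPM, a log2 difference of 1.06 (SE 0.854, adjusted p = 0.318). Without replicate 3 of AIN93G at ZT 20, which held 21.4 CPM, the difference was 2.60 and passed (adjusted p = 0.0115). At ZT 16 the sign turned when replicate 1 or 3 of AIN93G, or replicate 1 or 2 of the HFD, was left out.

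Lists of related genes gave the following counts in this comparison, where 28% of all genes were lower and 27.7% higher at ZT 16, and 30.2% lower and 28.4% higher at ZT 20. All 3 uncoupling protein genes, Ucp2 and Ucp3 included, were lower at both times. Ucp1 and Ucp3 had a liver median of 0 counts and met the minimum count only through the adipocyte-rich libraries, so their direction was fixed. The ubiquitous cytochrome c oxidase subunits had 0 of 10 passing at ZT 16 and 1 of 10, higher, at ZT 20. Of 9 brown and beige markers tested, 7 were lower at each time. Among the listed markers, Slc36a2 and Otop1 had a liver median of 0 counts and P2rx5 and Kcnk3 of 4 counts. These too met the minimum count only through the adipocyte-rich libraries, so the count of markers is a description. Of 13 fuel supply genes tested, 5 were lower and 3 higher at ZT 16, and 6 lower and 3 higher at ZT 20, several being also used by liver. Of 13 transcriptional regulators, 4 were lower and 3 higher at ZT 16, and 5 lower and 2 higher at ZT 20. The fuel supply and regulator counts lay near the shares over all genes. Of 12 genes of adrenergic and thyroid input, 8 were lower and 3 higher at both times.

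At ZT 24 each diet had 2 adipocyte-rich libraries and 1 liver library. No gene passed (0%, with 67 genes at an unadjusted p under 0.05 in edgeR and 3 genes called by DESeq2), and no member had an unadjusted p under 0.05. Ucp1 was at 0 in both liver libraries of that time. Between ZT 20 and ZT 16 on AIN93G, where all 6 libraries were adipocyte-rich, no gene passed in edgeR (0%, 1353 genes at an unadjusted p under 0.05, 159 called by DESeq2) and no member in either tool. The log2 difference of Ucp1 was 0.51 with an SE of 1.3, a wide interval that does not show that the times were alike.

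In liver, Ucp1, Cidea, Dio2 and Cox8b were at or near the limit of detection in most libraries. Ucp1 had no count in 22 of 32 libraries and at most 3 counts in 30. Cidea was the same, with no count in 22 and at most 3 in 30, and Dio2 had at most 3 counts in 31. Cox8b had a median of 1 count and Prdm16 of 6.5 counts. Cox7a1 was counted in every liver library, with at least 10 counts and a median of 1.5 CPM. A count of 0 allows up to 0.174 to 0.241 CPM in these libraries (3 counts), so lower levels were not detectable at this depth.

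Replicate 3 of AIN93G at ZT 4 stood apart among the liver libraries. It held 401 Ucp1 counts (27.1 CPM), 88 Cidea counts, 47 Cox8b counts and 8 Dio2 counts. It also held 83 counts of Adipoq, 70 of Plin1, a droplet coat protein of adipocytes, 284 of Cfd, the adipokine adipsin, 28 of Slc36a2 and 23 of Otop1, with 3 counts of Lep, the leptin gene. Its Ucp1 count per 100 Adipoq counts was 483, against at most 43.8 in the adipocyte-rich libraries. Its 12 hepatocyte markers, Alb included, summed to 166700 CPM, inside the liver range of 127500 to 196900 CPM. Replicate 2 of the HFD at ZT 20 held 11 Ucp1 and 8 Cidea counts with 4 of Adipoq.

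Replicate 2 of AIN93G at ZT 8 had a different pattern. It held 389 Cox7a1 counts (25.4 CPM) and 436 Cox8b counts (28.4 CPM), but 1 Ucp1 count and no Dio2 count. Its summed muscle markers were 3381 CPM, with 8739 counts of Acta1, skeletal actin, 8794 of Myh1, a fast myosin, and 379 of Cox6a2, the muscle isoform of another oxidase subunit. The level per 1000 CPM of muscle markers was 8.41 for Cox8b, between those of the muscle-rich adipocyte libraries, and 7.5 for Cox7a1, above theirs (2.4, 2.65 and 5.45). That ratio is not a test of where the RNA came from.

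**Figure D4:**
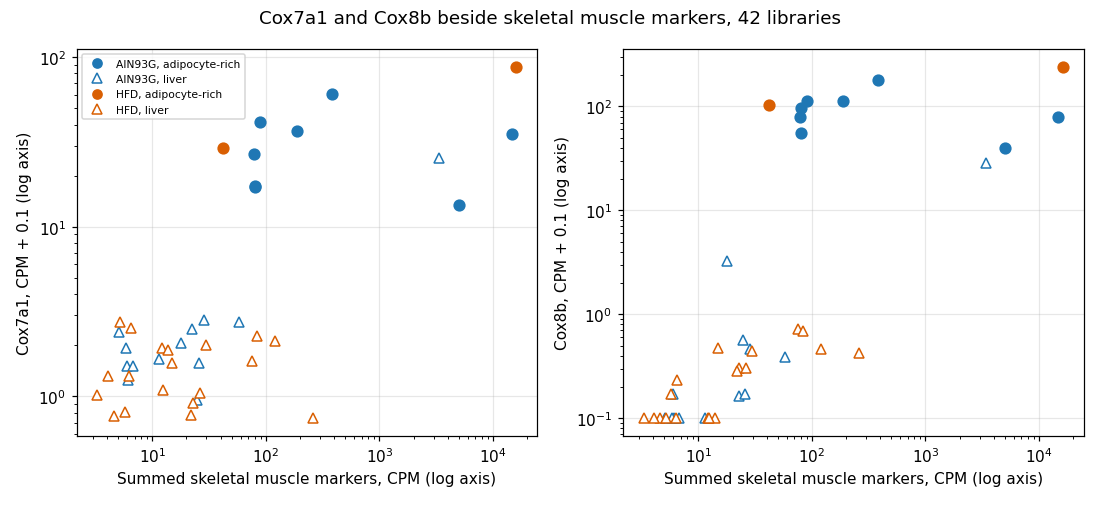
Cox7a1 and Cox8b (CPM plus 0.1) against the summed level of 19 skeletal muscle markers (CPM) in 42 libraries, all axes log; filled circles are adipocyte-rich and open triangles liver. The triangle at 3381 CPM of muscle markers has 25.4 CPM of Cox7a1 and 28.4 CPM of Cox8b, far above the other triangles.

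Ucp1, Cidea, Dio2, Cox8b and Prdm16 did not average 25 counts in the liver libraries and entered the tests within liver only through their counts in the adipocyte-rich libraries, so that their calls, or lack of calls, there say little. On AIN93G from ZT 0 to ZT 12, 1.01% of genes changed with time in edgeR, and Ucp1 (adjusted p = 0.0199) and Cox8b (adjusted p = 0.0367) were among them. Without replicate 3 of ZT 4, the adjusted p of Ucp1 was 0.911, and without replicate 2 of ZT 8 that of Cox8b was 0.55. Without both, no member passed. When the minimum count was taken over the liver libraries fitted, Ucp1 and Cox8b were not tested. The calls were also lost without some of the other AIN93G libraries. Ucp1 was at an adjusted p of 0.0657 and 0.0751 without replicate 2 or 3 of ZT 0 and 0.0851 without replicate 2 of ZT 8. Cox8b was at 0.0736, 0.0955 and 0.0983 without replicate 1, 2 or 3 of ZT 0, at 0.0529 without replicate 1 of ZT 4 and at 0.0572 without replicate 2 of ZT 12. In HFD liver from ZT 0 to ZT 20, 4.5% of genes passed in edgeR. Elovl3 and Cox7a1, the members with enough counts in liver for this test, did not pass or reach an unadjusted p under 0.05, and DESeq2 called neither.

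The diet comparisons within liver called no member. At ZT 0, 0.105% of genes passed in edgeR (1020 genes at an unadjusted p under 0.05, and 106 called by DESeq2), and Cox7a1 alone among the members had an unadjusted p under 0.05. At ZT 4, ZT 8 and ZT 12, 0% passed (462, 909 and 554 genes at an unadjusted p under 0.05, and 26, 60 and 5 called by DESeq2). The members with an unadjusted p under 0.05 were 5 at ZT 4 (Ucp1, Cidea, Elovl3, Cox7a1 and Cox8b), 2 at ZT 8 (Cox7a1 and Cox8b) and none at ZT 12. The AIN93G library with raised Ucp1 lies at ZT 4, but not all 5 were raised by it. Elovl3 was higher on the HFD (log2 difference 2.67), and Cox7a1 was at 1.96 CPM in that library, the lowest of its group (1.96 to 2.7 CPM). DESeq2 called none of the members it gave an adjusted p at these times. The difference of the diets averaged over ZT 0 to ZT 12 called 0.0821% of genes, and its dependence on time 0% (768 genes at an unadjusted p under 0.05, 5 called by DESeq2).

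Elovl3 had the highest liver median of the members. Its liver count ran from 17 to 1096, or 1.11 to 72 CPM, with a median of 6.32 CPM against 14.3 CPM in the adipocyte-rich libraries, where it ran from 0.245 to 29.1 CPM. The ranges overlapped, and 3 liver libraries lay above the highest adipocyte-rich library. Its level was highest in 4 HFD libraries: 72 CPM in replicate 3 at ZT 4, 48.8 CPM in replicate 2 at ZT 0, 36.4 CPM in replicate 2 at ZT 20 and 20.2 CPM in replicate 3 at ZT 16. Each of these stood with 2 replicates at 11.9 CPM or less. On AIN93G no liver library exceeded 12.9 CPM.

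The HFD mean of Elovl3 was above the AIN93G mean at each of the 4 times with 3 liver libraries on both diets, but the groups overlapped at each of them. At ZT 0 the means were 19.8 ± 25.1 and 7.52 ± 5.22 CPM, and at ZT 4 29.8 ± 36.5 and 4.67 ± 4.74 CPM (SD, n = 3). At ZT 8 they were 5.28 ± 1.79 and 3.34 ± 0.753 CPM, and at ZT 12 7.66 ± 4.22 and 4.4 ± 3.43 CPM. The difference averaged over these times was 1.38 on the log2 scale (SE 0.501, unadjusted p = 0.0106, adjusted p = 0.41 in edgeR), which did not pass. With no filter beyond 1 count it did pass (adjusted p = 0.000218 in edgeR), where 0.768% of all genes were called. The call therefore depended on the filter. Leaving out each library in turn gave 0.91 to 1.7. Cox7a1 differed the other way, by -1.23 (SE 0.389, adjusted p = 0.28), and by -0.49 without the muscle-rich library of ZT 8. It too passed with no filter beyond 1 count (adjusted p = 0.0035 in edgeR).

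Within groups the SD of Elovl3 between liver replicates was 1.3 on the log2 CPM scale (30 libraries in 10 groups), against a median of 0.26 over 12023 genes, and 99.2% of genes had a smaller SD. Among the elongase genes in liver the median levels per kilobase were 343 CPM per kb for Elovl2, 218 for Elovl5, 32.3 for Elovl6, 12.2 for Elovl1, 4.23 for Elovl3, 0.139 for Elovl7 and 0 for Elovl4. Elovl2 and Elovl5 lengthen polyunsaturated fatty acids, and Elovl6 acts on the products of fatty acid synthesis.

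The 10 genes most like Elovl3 over the 32 liver libraries included 4 major urinary protein genes, Mup11 (r = 0.754), Mup7 (0.745), Mup20 (0.726) and Mup14 (0.688). The others were C330002G04Rik (0.771), Ankrd46 (0.703), Adh6-ps1 (0.7), Tnfaip8l1 (0.692), Scp2 (0.682) and Lrg1 (0.643). The Mup genes are near-identical copies, so their counts may be split between them and are uncertain. These likenesses were chosen from 12000 genes and are given with no test.

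Mouse liver expresses Mup20 and some cytochrome P450 genes at levels that depend on sex and on the pattern of growth hormone release. Over the 32 liver libraries Elovl3 rose with the male-biased gene Mup20 (Pearson's r = 0.726, Spearman's rho 0.671, adjusted permutation p = 9e-05 and 0.00036). It was lower where the female-biased genes were higher: Cyp2b9 (r = -0.614, rho -0.629, adjusted permutation p = 0.00124 and 0.00054), Cyp3a44 (r = -0.587, rho -0.464, adjusted permutation p = 0.00124 and 0.0145) and Sult2a1 (r = -0.585, rho -0.563, adjusted permutation p = 0.00124 and 0.00294). The p-values are two-sided and adjusted over the 9 sex-biased genes measured, of which Hsd3b5 did not pass (r = 0.332, rho 0.308, adjusted permutation p = 0.0642 and 0.0875).

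Without the 2 libraries with Elovl3 farthest from its median, r was 0.639 for Mup20 and -0.569 for Cyp2b9. Within the labelled groups, on deviations from the group means of 30 libraries, r was 0.77 and -0.739. Within AIN93G liver (13 libraries) r was 0.409 for Mup20 and -0.757 for Cyp2b9, and within HFD liver (19 libraries) 0.75 and -0.518. The direction was thus the same in both diets. All 4 HFD libraries with high Elovl3 had 203 CPM or more of Mup20, against a liver median of 91.4 CPM, and 429 CPM or less of Cyp2b9, against a median of 597 CPM.

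**Figure D5:**
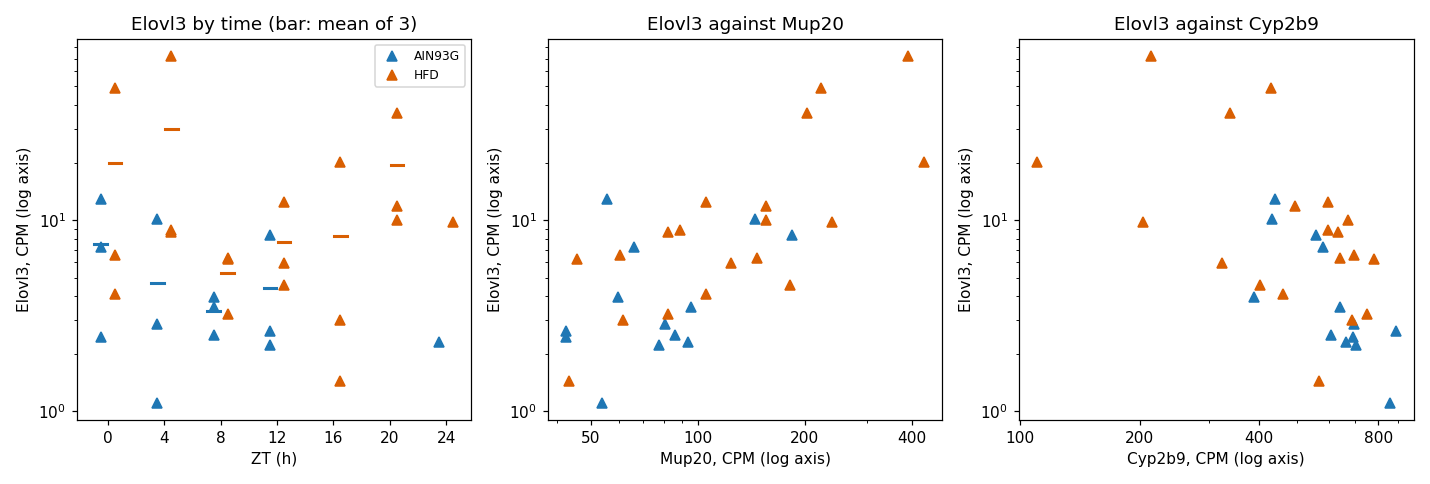
Elovl3 (CPM, log axis) in the 32 liver libraries by time point, with bars at the mean of groups of 3, and against Mup20 and Cyp2b9 (CPM, log axes); color gives the diet. The 4 highest points are HFD libraries, and Elovl3 rises with Mup20 (r = 0.726) and is lower where Cyp2b9 is higher (r = -0.614).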

How the data were processed

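Poly(A) RNA libraries were sequenced, 42 in all, 3 for each of 2 diets and 7 time points. The authors deposited raw read counts per gene, one table of whole numbers, and the submitters' processing notes name mm10, fastp, STAR, HTSeq 0.6.1, DESeq and STAR-Fusion without saying how each was used. Coordinates are those of the deposited table (mm10), and 5 of the 7 members had the same coordinates in GENCODE M21. Counts were scaled by TMM in edgeR 4.0.16 (R 4.3.3), with a prior count of 2 for log2 CPM. The 13394 genes averaging 25 or more counts in the 42 libraries were tested with edgeR's quasi-likelihood test, fitting the groups of each comparison, at a Benjamini-Hochberg adjusted p under 0.05; SE is the log2 difference divided by the square root of F. DESeq2 1.42.0 was an alternative. Both were tested on simulated data, where edgeR kept its nominal rate of false calls and DESeq2 exceeded it. Libraries under 100 CPM of Alb (per library total) were called adipocyte-rich. All 42 replicate pairs differed by more than sampling noise (chi-square per degree of freedom at least 16). Nothing in the labels ties a library to more than its title, so p-values measure the spread between libraries. Named genes were the members, the fixed lists and the 10 genes most alike to Ucp1 or Elovl3. The members and lists were chosen with earlier results of these data known. The result for 1 gene of the sex-biased list is not reported here.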

Additional observations from a re-analysis of the deposited data

How the results depend on the processing

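No paired analysis was possible because replicate numbers were given in accession order and the labels name no shared litter, batch or day. At ZT 16 and ZT 20 the 6 calls remained under all 11 alternatives, and at ZT 20 the count was 6 to 7 when single libraries were left out. Elovl3 at ZT 16 turned to 0.07, 0.21, 0.11 and 0.21 without AIN93G replicate 1, AIN93G replicate 3, HFD replicate 1 and HFD replicate 2, within a range of -2.16 to 0.21 over the 6 libraries left out. With no filter beyond 1 count, members called (and the share of all genes called) were 1 at ZT 0 (1.77%), 4 at ZT 4 (0.715%), 2 at ZT 8 (0.99%), 1 for time in HFD liver (5.75%), 4 for time in AIN93G liver (2.89%), 2 for the mean diet difference (0.768%) and 2 for diet by time (0.308%). The 2 members called for the mean diet difference were Elovl3 and Cox7a1. The cause of these added calls was not tested. For time in AIN93G liver the count of 2 was 1 in DESeq2 (Cox7a1, with no p for Ucp1), 0 with the mean count of 25 taken over the fitted libraries (which left Ucp1 and Cox8b untested), 0 without both libraries with raised members (chosen after seeing the data), and 0 to 3 when single libraries were left out. For time in HFD liver it was 0 to 1 when single libraries were left out (Prdm16 without replicate 2 of ZT 8). With library size alone the adipocyte-rich medians of all 7 members were higher, for example 275 in place of 181 CPM for Ucp1, 267 in place of 167 CPM for Cidea and 15.1 in place of 9.66 CPM for Prdm16, because TMM factors were 1.23 to 1.75 in these libraries and 0.811 to 0.97 in liver. The number of members whose r with Ucp1 passed ran from 3 to 6. It was 6 relative to the summed adipocyte markers, a divisor shared by both genes of a pair that can raise r by itself. An Alb threshold of 1000 CPM gave the same 10 libraries. With 3 libraries a group and this spread, small differences in the adipocyte-rich libraries could not be shown.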

Other observations

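Xist, the RNA that silences an X chromosome in females, was at 0.697 CPM in replicate 3 of the HFD at ZT 16 and at 128 CPM in replicate 2, against a liver median of 1130 CPM. In replicate 3 the summed level of Xist and the Y-linked genes examined was 0.7546 CPM, so Y-linked RNA was not detected above 3 counts there. Replicate 3 also had 20.2 CPM of Elovl3, 434 CPM of Mup20 and 110 CPM of Cyp2b9, and replicate 2 had 1.44, 43.2 and 567 CPM. Without these libraries (chosen after seeing the data), r of Elovl3 with Mup20 was 0.694 and with Cyp2b9 -0.642 over the other liver libraries.

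Tbx1, which was alike to Ucp1 in the adipocyte-rich libraries, had 43 counts in replicate 2 of AIN93G at ZT 8, the liver library with raised muscle markers, and none in replicate 3 of AIN93G at ZT 4, the liver library with raised Ucp1.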
